A study of Arabidopsis thaliana with 27 samples.

Results

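In Arabidopsis thaliana, 44 genes were present in the egg cell, in the zygote 14 hours after pollination and in the 1-cell embryo, but were nearly absent from the elongated zygote at 24 hours. They were chosen by their values in the accession Columbia (Col). A gene was taken when it lay under 1 FPKM in every library of the 24 hour zygote and at or above 5 FPKM in every library of the egg cell, the 14 hour zygote and the 1-cell embryo. FPKM are fragment counts divided by transcript length and by the depth of the library, and a gene that a table does not list counts as 0. Of 24607 loci listed in at least 1 library, 8296 reached 5 FPKM in all 9 libraries of the egg cell, the 14 hour zygote and the 1-cell embryo, and the 44 genes are 0.53% of those. The same limits with the 2 zygote ages exchanged found 0 loci. A dip at the 1-cell embryo, between the 14 and 24 hour zygotes and the 32-cell embryo, was found for 10 loci.

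Each of 27 libraries holds polyadenylated RNA of one stage, captured on beads and amplified as full-length cDNA, with 3 libraries in each of 9 groups. The Col groups are mature egg cells (EC), zygotes at 14 hours (Zy14) and 24 hours (Zy24) after pollination, and embryos of 1 cell (1C) and 32 cells (32C). Hybrid zygotes were sampled at the same hours. LZy14 and LZy24 have a Landsberg erecta (Ler) mother and a Col father, and CZy14 and CZy24 have a Col mother and a Ler father. No mutant or transgene is named in the labels, and all plants grew in a greenhouse in days of 16 hours at 22 °C. The labels do not say how many cells went into a library or whether replicates came from separate plants.

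Before fertilization the egg cell stores transcripts of the mother. After fertilization these stored transcripts are degraded and the zygotic genome takes over, a change known as the maternal-to-zygotic transition, while the plant zygote elongates and then divides asymmetrically. A transcript that disappears and comes back within this window differs from stored egg cell transcripts, which disappear for good. It also differs from transcripts of zygotic genes, which rise after fertilization. Among the 44 genes the annotation names several proteins of ribosome biogenesis. Ribosomes are assembled in the nucleolus, where a precursor RNA is cut, chemically modified and joined to ribosomal proteins by assembly factors that leave before the ribosome is finished. Brix domain proteins are a family of such factors that bind ribosomal RNA, and some dimethylases and other methyltransferases modify it. Others act on other RNA or outside the nucleolus, as described below for FIO1 and DIM1B.

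Of 5 loci whose product names a ribosomal RNA processing Brix domain, 4 are among the 44 genes. They are BRX1-1 (AT3G15460) and BRX1-2 (AT1G52930), which resemble the yeast large-subunit factor Brx1, IMP4 (AT1G63780), whose yeast counterpart belongs to the small-subunit processome, and MEE49 (AT4G01560), named for a maternal effect embryo arrest mutant. The other is AT3G23620, the counterpart of yeast Rpf2, which did not dip. The 250 bases before the annotated start of these 5 genes are shown because the members of this family behave differently and the window can be searched for known promoter elements. The sequences are read 5′ to 3′ on the gene's strand from the RefSeq genome of build TAIR10.1, and capitals mark site II elements (TGGGCC on either strand), which are common before plant genes of ribosomes and cell growth.
BRX1-2, chr1:19710929-19711178, plus strand: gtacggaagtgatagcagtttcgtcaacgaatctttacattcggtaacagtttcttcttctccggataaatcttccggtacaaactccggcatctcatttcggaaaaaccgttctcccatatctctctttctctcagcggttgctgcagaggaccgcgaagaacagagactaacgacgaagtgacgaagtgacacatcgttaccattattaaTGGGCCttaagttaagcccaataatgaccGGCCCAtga
BRX1-1, chr3:5216262-5216511, minus strand: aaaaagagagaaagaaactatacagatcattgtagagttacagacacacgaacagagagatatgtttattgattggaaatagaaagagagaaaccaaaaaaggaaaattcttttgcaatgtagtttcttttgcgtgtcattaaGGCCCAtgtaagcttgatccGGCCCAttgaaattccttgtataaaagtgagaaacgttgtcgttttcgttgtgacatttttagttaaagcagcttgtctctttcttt
IMP4, chr1:23667373-23667622, minus strand: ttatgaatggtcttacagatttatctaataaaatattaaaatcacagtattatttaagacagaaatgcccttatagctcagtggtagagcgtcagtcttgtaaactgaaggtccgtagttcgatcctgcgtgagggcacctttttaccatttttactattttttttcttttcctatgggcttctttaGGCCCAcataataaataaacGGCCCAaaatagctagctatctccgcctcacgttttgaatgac
MEE49, chr4:679277-679526, minus strand: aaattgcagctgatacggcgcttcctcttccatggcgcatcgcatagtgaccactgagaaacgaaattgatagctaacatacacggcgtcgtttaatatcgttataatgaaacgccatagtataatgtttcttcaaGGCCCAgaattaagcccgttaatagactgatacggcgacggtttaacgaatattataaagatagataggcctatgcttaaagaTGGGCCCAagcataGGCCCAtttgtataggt
AT3G23620, chr3:8479775-8480024, plus strand: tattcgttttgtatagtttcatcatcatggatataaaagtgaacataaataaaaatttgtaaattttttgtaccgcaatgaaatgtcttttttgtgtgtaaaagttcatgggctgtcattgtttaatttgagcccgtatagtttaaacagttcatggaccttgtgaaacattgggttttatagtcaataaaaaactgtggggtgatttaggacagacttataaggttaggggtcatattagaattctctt

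The 4 Brix genes that dip hold 2, 2, 2 and 4 site II elements in this window, of which those 31 and 29 bases before the start of MEE49 overlap, and AT3G23620 holds 0. A match describes the letters only, and TGGGCC alone was counted, here and in the shares given here and below. TGGGCT, which differs in the last base, was not counted. On either strand it occurs in the windows of AT3G23620, BRX1-2 and IMP4, so the contrast with AT3G23620 holds for TGGGCC only. Site II was present in 11 of the 44 promoters (25.0%). This share was like that of 8226 loci at or above 5 FPKM in EC, Zy14 and 1C, the 44 included (25.2%). It was above that of all 27561 promoters (13.6%). The telobox (AAACCCTA), the other element common in such promoters, was found in 0 of 44, against 4.97% of the 8226. The TATA box (TATAAA) was present in 17 of 44 (38.6%, against 44.3%), the G-box (CACGTG) in 2 (4.55%, against 7.26%) and a GAGA repeat (GAGAGAGA) in 2 (4.55%, against 4.56%), each on either strand.

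Several libraries stood apart and enter the values below. LZy14 replicate 3 lay between replicates 1 and 2 at 87.0% of 12375 loci, while this share was 5.83% to 60.2% for the other 26 libraries. At the 2715 loci where replicates 1 and 2 differ more than 2-fold it was 99.9%. That second share was high in some other libraries too, up to 94.6% in 1C replicate 3. CZy14 replicates 1 and 2 differed by a median of 0.128 on the log2 scale, against 0.505 and 0.523 to replicate 3. No libraries were identical. A reduced 14 hour set, with CZy14 replicates 1 and 2 averaged and LZy14 replicate 3 left out, was fitted as well, and for genes named below the calls that it ended are given with its adjusted p. Listed genes numbered 14902 to 20062 per library. The steps in the low values put 1 FPKM at about 10.7 to 26.2 fragments per kilobase, a rough estimate, since 2 separate sets of genes gave values within 10% of each other in only 19 of 27 libraries. Egg cell and zygote markers matched the labels: the summed level of 8 such genes was at least 56900 FPKM in EC, where WOX2 is listed at 0, and 825 to 971 in Zy24, where EC1.1 to EC1.4 are listed at 0. Synergid markers were listed at 0 in every Zy24 and CZy24 library. Their sum was 6.76 to 143 FPKM in the EC libraries and reached 518 in 1 Zy14 library. The sums of the other marker lists stayed at or below 16.4 (central cell and endosperm), 7.15 (seed coat) and 20.4 (sperm and pollen).

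In Col the fall at 24 hours was close to complete, and the level at 1C ran from a small part of that in the egg cell to above it. These values chose the genes, so they are a description. The median over the 44 genes of the group mean was 17.8 FPKM in EC, 17.0 in Zy14, 0.015 in Zy24 and 14.4 in 1C. In Zy24, 15 genes were listed at 0 in all 3 libraries, 26 were under 0.1 in all 3 and the highest single value was 0.73. The 1C mean lay within 2-fold of the EC mean for 28 genes, under it by more than 2-fold for 12 and over it by more than 2-fold for 4. The values are relative to each library's total, and in whole-cell samples fewer cells holding a transcript and less of it per cell cannot be told apart.

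Many genes lay near the limit of 5 FPKM, since a limit of 10 gave 14 genes and a limit of 2 gave 164. The Zy24 limit mattered less, with 40 genes under 0.5 FPKM and 57 under 2. The members nearest the upper limit in Zy24 were AT5G12110 (0.73), AT1G12380 (0.71) and ARP5 (0.65), and the loci just outside by Zy24 alone were AT4G22120 (1.06), G6PD2 (1.16) and PRORP1 (1.21). The members with the lowest value over EC, Zy14 and 1C were AT1G30440 (5.22), DUF7 (5.27) and AT5G16230 (5.3), and just outside by that limit alone were AT3G14700 (4.96), RABA2b (4.89) and AT5G15390 (4.88).

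**Figure D1:**
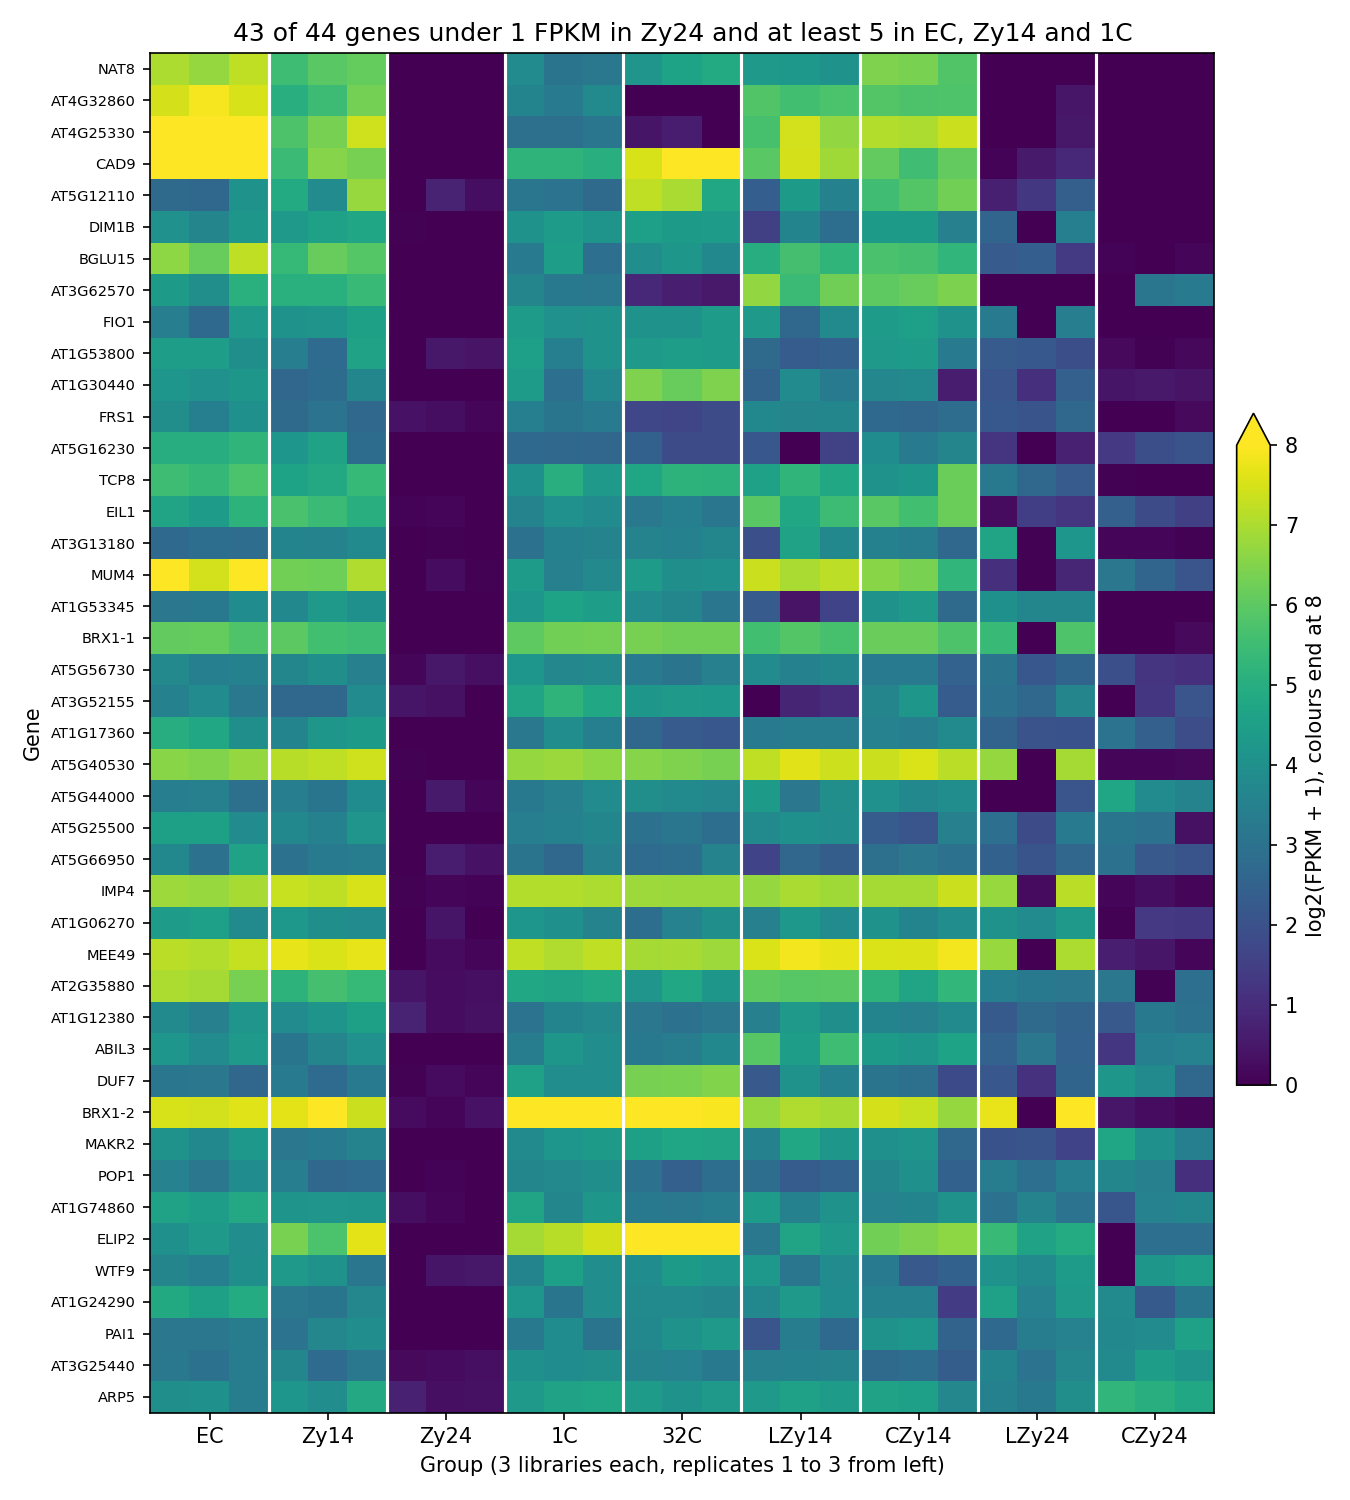
Level of 43 of the 44 genes (rows) in each of the 27 libraries (columns, 3 per group, replicates 1 to 3 from left), as log2(FPKM + 1) with colours ending at 8. Rows are ordered by their mean log2 level over the 6 hybrid libraries of 24 hours, lowest at the top. The Zy24 columns are dark in every row by the choice of the genes, CZy24 is dark in 19 rows and LZy24 in 5.

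The highest genes fall into an egg cell type and a steady type. CAD9, of the cinnamyl alcohol dehydrogenase family that makes lignin precursors, stood at 571, 1176 and 414 FPKM in EC, 43.2, 92.3 and 81.1 in Zy14, 0, 0 and 0 in Zy24 and 35.5, 35.9 and 31.4 in 1C. AT4G25330, a protein with a SAWADEE domain, went from 411, 478 and 343 in EC to 53.3, 81.5 and 172 in Zy14, 0, 0 and 0 in Zy24 and 6.78, 6.76 and 7.82 in 1C. Both were far higher in the egg cell than in any later stage up to 1C, and no EC library overlapped a Zy14 library. The same order held for AT4G32860, annotated as an Avr9/Cf-9 rapidly elicited protein, with 177, 237 and 180.5 in EC, 32, 44.2 and 79.6 in Zy14 and 11.1, 9.12 and 12.9 in 1C. It held too for MUM4, a rhamnose synthase known for seed coat mucilage, with 250.4, 175 and 323 in EC, 76.8, 74.9 and 132 in Zy14 and 20.4, 10.1 and 12.7 in 1C. In all 4 genes the level at 14 hours was already below that of the egg cell, and the level in 1C was a small part of it.

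The nucleobase-ascorbate transporter gene NAT8 (127, 105 and 149 in EC, 13.4, 7.41 and 8.24 in 1C) and the beta glucosidase gene BGLU15 (99.6, 69.9 and 151 in EC, 8.93, 21.5 and 6.55 in 1C) followed this course. So did AT2G35880, of the microtubule-binding TPX2 family, with 129, 119 and 80.6 in EC and 26.7, 24.3 and 28.5 in 1C. EC and 1C libraries did not overlap for any of these 3 genes.

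The steady type held the Brix genes. BRX1-2 stood at 181, 176 and 195 FPKM in EC, 203, 260.0 and 164 in Zy14, 0.17, 0.1 and 0.32 in Zy24 and 305, 256 and 269 in 1C. MEE49 stood at 144, 135 and 158 in EC, 209, 186 and 206 in Zy14, 0, 0.17 and 0.11 in Zy24 and 149, 132 and 149 in 1C. IMP4 stood at 113, 107 and 124 in EC, 160.1, 149.9 and 183 in Zy14, 0.03, 0.09 and 0.06 in Zy24 and 135, 135 and 128 in 1C. For these genes the levels before and after the dip were of the same order, at 106.78 FPKM or more in each library, and the Zy24 libraries lay at or below 0.32. BRX1-1 was lower and had the same course, with 67.2, 68.6 and 54.2 in EC, 62.8, 46.8 and 44.7 in Zy14, 0 in every Zy24 library and 63.1, 77.7 and 80 in 1C. The methyltransferase gene AT5G40530 stood at 95.2, 88.7 and 105 in EC, 141, 149 and 169 in Zy14, 0.04, 0 and 0 in Zy24 and 106, 110.3 and 98.8 in 1C. A rising course was seen for ELIP2, an early light-inducible protein of the chlorophyll-binding family, at 15.2, 19.1 and 14 in EC, 82.8, 52.5 and 203 in Zy14, 0 in every Zy24 library and 121, 139.8 and 177 in 1C.

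At 32 cells, a stage the choice did not use, 37 of the 44 genes were at or above 5 FPKM in all 3 libraries and the median of the group means was 16.2. ELIP2 (324, 364 and 324) and CAD9 (181, 284 and 254) were the highest with BRX1-2 (268, 269.8 and 239). Exactly 3 genes were under 1 FPKM in every 32C library: AT4G32860 at 0 in each, AT4G25330 at 0.36, 0.57 and 0, and AT3G62570, a tetratricopeptide repeat protein, at 0.91, 0.61 and 0.45. AT4G32860 and AT4G25330 are of the egg cell type, and 1C was the last stage in which they reached 1 FPKM. In each 32C library 6.82% of the 44 genes were under 1 FPKM, against 0.398%, 0.506% and 0.615% of the 8296 loci.

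The hybrid zygotes were not used to choose the genes and ask whether the dip is seen outside Col. At 14 hours nearly all genes were present: 1, 3 and 0 of the 44 were under 1 FPKM in the LZy14 libraries and 0, 0 and 1 in the CZy14 libraries. As shares these were 2.27%, 6.82% and 0% in LZy14, against 0.374%, 0.603% and 0.157% of the 8296 loci. In CZy14 they were 0%, 0% and 2.27%, against 0.0362%, 0.193% and 0.205%. At 24 hours the dip was partial and unlike between the crosses. In the CZy24 libraries 24, 20 and 20 of the 44 genes were under 1 FPKM (54.5%, 45.5% and 45.5%), against 2.68%, 1.74% and 2.03% of the 8296 loci. In the LZy24 libraries 8, 16 and 7 were under 1 FPKM (18.2%, 36.4% and 15.9%), against 0.542%, 0.446% and 0.217%. Every 24 hour hybrid library thus held a larger share of dipped genes among the 44 than among the 8296, and no library repeated the full dip. The CZy24 and LZy24 counts did not overlap. The same held for the shares among the 8296 loci, which were higher in every CZy24 library, so this order was not particular to the 44 genes.

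The median level of the 44 genes was 5.4, 3.16 and 5.9 FPKM in LZy24 and 0.38, 1.46 and 1.32 in CZy24, while the median of the 8296 loci stayed between 36.95 and 41.31 in these 6 libraries. The 44 genes were already lower in the hybrid libraries of 14 hours, with medians of 13.3 to 19.03 FPKM against 37.36 to 41.4. The 8296 loci are thus not matched to the 44 in level, which also holds for the shares under 1 FPKM. All 3 libraries were under 1 FPKM for 19 genes in CZy24 and 5 in LZy24, and all 3 were at or above 5 for 7 genes in CZy24 and 12 in LZy24. Within a cross, with the same limits at 14 and 24 hours, 18 of the 34 genes at or above 5 FPKM in every CZy14 library were under 1 in every CZy24 library (52.9%), against 6.94% of 11217 loci. For LZy it was 5 of 32 genes (15.6%), against 2.98% of 10859 loci. Only 4 genes were under 1 FPKM in all 6 hybrid libraries at 24 hours, NAT8, CAD9, AT4G25330 and AT4G32860, all of the egg cell type, and 14 genes were under 1 in none.

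**Figure D2:**
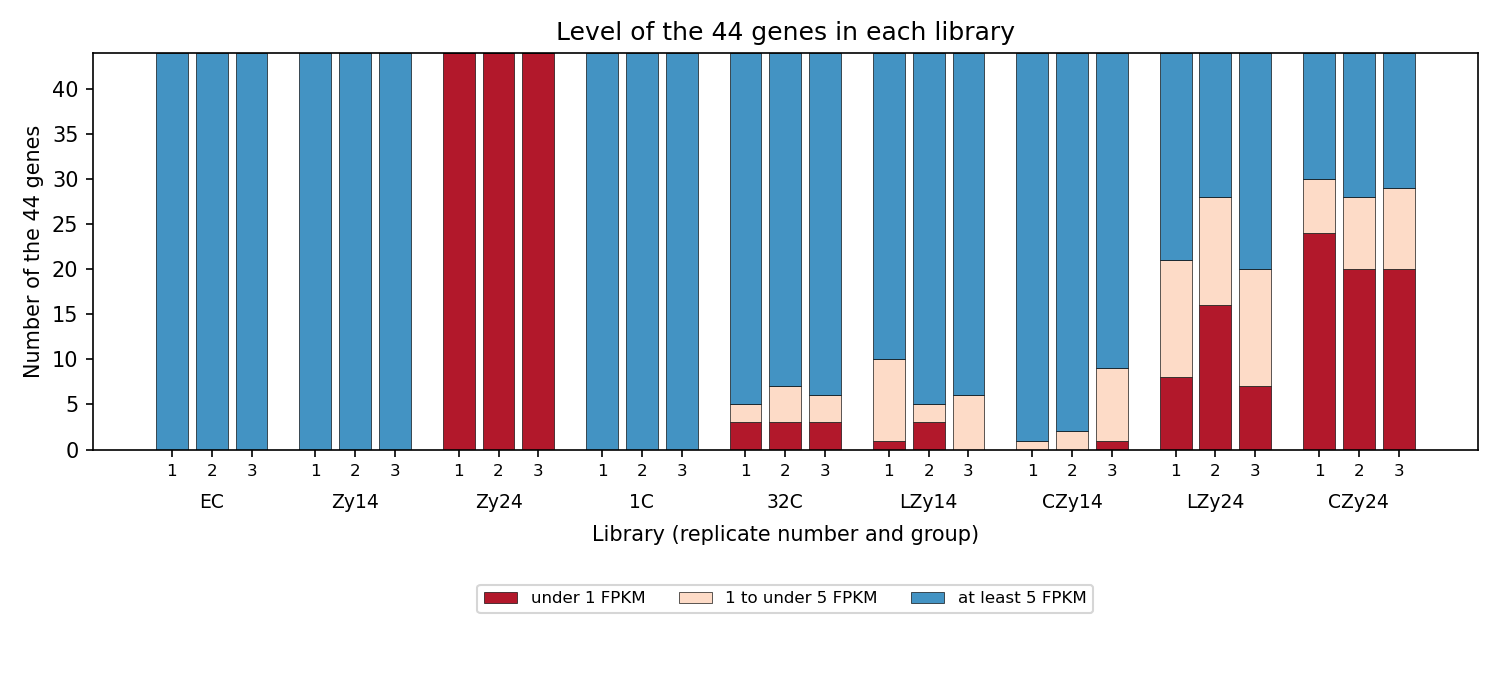
Number of the 44 genes (vertical axis) under 1 FPKM, from 1 to under 5 and at or above 5 FPKM in each library (horizontal axis, replicates 1 to 3 of each group). The EC, Zy14, Zy24 and 1C bars are fixed by the choice of the genes. CZy24 holds 24, 20 and 20 genes under 1 and LZy24 8, 16 and 7.

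Changes in the hybrids were tested with limma on log2(FPKM + 1) in the 12 hybrid libraries, and a gene is said to fall or rise where the Benjamini-Hochberg adjusted p over 17912 loci is under 0.05 and the log2 change at least 1. All 44 genes passed the filter on low values. Changes are given ± SE with 3 libraries in each group, and adding 1 before the logarithm makes the change of low genes too small. From CZy14 to CZy24, 30 of the 44 genes fell (68.2%) and 1 rose, against 25.2% and 20% of all loci tested, and their median change was -2.99 against -0.09 for all loci. From LZy14 to LZy24, 19 fell (43.2%) and 2 rose, against 19.8% and 18.3%, and the median change was -1.36 against -0.05. In either direction 45.2% of all loci were called in CZy and 38% in LZy. Among the 8296 loci the shares that fell were 17.9% and 15.4%. In all, 15 genes fell in both crosses, 13 fell in CZy with no call in LZy, 4 fell in LZy with no call in CZy, 2 fell in CZy and rose in LZy, and 9 were called in neither. With the reduced 14 hour set 26 fell in CZy and 16 in LZy.

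The genes of the egg cell type fell in both crosses. CAD9 went from 66.9, 46.1 and 66.5 FPKM in CZy14 to 0 in every CZy24 library, and from 60.6, 178 and 115 in LZy14 to 0.05, 0.48 and 0.88 in LZy24. The groups did not overlap in either cross, with log2 changes of -5.91 ± 0.394 (limma adjusted p = 3.23e-07) in CZy and -6.25 ± 0.394 (limma adjusted p = 2.13e-07) in LZy. AT4G25330 went from 133, 129.6 and 163 to 0 in every CZy24 library and from 50, 173 and 103 to 0, 0 and 0.43 in LZy24. Its log2 changes were -7.15 ± 0.394 (limma adjusted p = 7.23e-08) in CZy and -6.44 ± 0.394 (limma adjusted p = 1.76e-07) in LZy. AT4G32860 went from 57.3, 52.9 and 54.5 to 0 in every CZy24 library and from 55.4, 46.9 and 52.3 to 0, 0 and 0.41. NAT8 was listed at 0 in all 6 hybrid libraries at 24 hours, after 86.7, 83.1 and 56.3 in CZy14 and 19.1, 18.2 and 15.9 in LZy14. For these 4 genes every 24 hour zygote library of the study, Col and hybrid, was under 1 FPKM.

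MUM4 fell in both crosses but not to the same level. It went from 164, 127 and 148 FPKM to 1.1, 0.03 and 0.82 in LZy and from 94.6, 82.6 and 37.5 to 8.03, 5.08 and 3.36 in CZy. Every CZy24 library was above every LZy24 library, and the difference between the crosses in the change was -3.09 ± 0.569 (limma adjusted p = 0.00253). EIL1, an ethylene response transcription factor, went from 61, 26.6 and 43.7 to 0.17, 1.8 and 1.35 in LZy and from 60.5, 47.2 and 72 to 4.45, 2.55 and 1.86 in CZy. Its changes of -4.43 ± 0.418 (limma adjusted p = 5e-06) in LZy and -3.98 ± 0.418 (limma adjusted p = 9.39e-06) in CZy left it low in all 6 libraries, with 1 of them under 1 FPKM. AT3G62570 was listed at 0 in every LZy24 library but at 0, 7.9 and 9.1 in CZy24, so a single CZy24 library showed the dip. It fell by both contrasts, with -6.15 ± 0.701 (limma adjusted p = 2.12e-05) in LZy and -4.03 ± 0.701 (limma adjusted p = 0.000426) in CZy. LZy24 was called lower than CZy24 for AT3G62570, a call lost in 7 of 16 alternatives (limma adjusted p = 0.0583 with the reduced 14 hour set).

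Of the other 8 genes that fell in both crosses, 4 reached under 1 FPKM in every CZy24 library. BGLU15 ended at 0.06, 0 and 0.07 in CZy24 and 3.96, 4.22 and 1.56 in LZy24, TCP8, a TCP family transcription factor, at 0.04, 0 and 0 and 8.43, 5.4 and 3.95, and FRS1, a FAR1-related factor, at 0, 0 and 0.15 and 3.61, 3.19 and 5.43. The elongation factor gene AT5G12110 ended at 0 in every CZy24 library and at 0.64, 1.44 and 4.33 in LZy24. For these genes the LZy24 libraries lay above the CZy24 libraries without overlap, and LZy24 against CZy24 was called for BGLU15, TCP8 and FRS1 but not for AT5G12110 (limma adjusted p = 0.0513). AT2G35880 was under 1 FPKM in 1 of the 6 libraries only, with 7.98, 0.04 and 6.64 in CZy24 and 9.88, 8.31 and 8.1 in LZy24. The insulinase-family peptidase gene AT5G56730, the SCAR/WAVE-related ABIL3 and AT1G17360 fell but stayed above 1 FPKM in every hybrid library. With the reduced 14 hour set the fall of AT5G56730 in LZy (limma adjusted p = 0.12), that of ABIL3 in CZy (0.0626) and that of AT1G17360 in CZy (0.0637) and in LZy (0.0794) were lost.

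A group of 8 genes was absent or fully present in an all-or-none way at 24 hours. They were under 1 FPKM in every CZy24 library and in LZy24 replicate 2, and at or above 5 FPKM in LZy24 replicates 1 and 3. The group was picked after its values were seen, so the changes given for it describe it. BRX1-2 stood at 213, 0 and 259 FPKM in LZy24 and 0.39, 0.2 and 0.11 in CZy24, after 106, 132 and 122 in LZy14 and 178, 159.7 and 104 in CZy14. BRX1-1 stood at 40.9, 0 and 54.7 in LZy24 and 0, 0 and 0.15 in CZy24. LZy24 replicate 2 is the single LZy24 library without either BRX1 gene, and replicates 1 and 3 lay above the LZy14 libraries for BRX1-2 and near them for BRX1-1. IMP4 stood at 108, 0.18 and 143 in LZy24 and 0.09, 0.24 and 0.1 in CZy24, and MEE49 at 108, 0 and 129 and 0.61, 0.39 and 0.09. AT5G40530 stood at 106, 0 and 120.2 in LZy24 and 0.1, 0.07 and 0.12 in CZy24.

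The other 3 genes of the group had lower levels. FIO1, a METTL16-type methyltransferase of U6 small nuclear RNA, stood at 8.6, 0 and 9.65 FPKM in LZy24 and 0 in every CZy24 library. DIM1B, a ribosomal RNA dimethylase known from mitochondria, stood at 5.08, 0 and 9.97 and 0. AT3G13180, of the NOL1/NOP2/sun family, stood at 24.3, 0.04 and 17.3 in LZy24 and 0.11, 0.11 and 0.03 in CZy24. By product description, 4 of the 8 genes are Brix domain proteins and the 4 others belong to methyltransferase families, 3 by their description and AT3G13180 by its NOL1/NOP2/sun family, which is known for RNA methylation.

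The 8 genes were chosen by their CZy24 and LZy24 values, so the calls given here describe them and are not separate evidence. Within CZy their fall was between -3.10 for AT3G13180 and -7.23 for MEE49 on the log2 scale, and each was called by limma. For AT3G13180 the call was lost in 5 of 17 alternatives, among them CZy14 without replicate 1 (limma adjusted p = 0.0542), without replicate 2 (0.0513) and the reduced 14 hour set (0.0623). Within LZy none of the 8 was called, the changes running from -3.11 for MEE49 to -0.45 for AT3G13180, with LZy24 replicates on both sides. LZy24 was higher than CZy24 for 7 of the 8 genes, all but DIM1B, and without LZy24 replicate 1 or without replicate 3 none of these 7 calls held (for BRX1-2 3.72, adjusted p = 0.118, and 3.57, adjusted p = 0.119, by limma). With the reduced 14 hour set the calls of FIO1, AT3G13180 and MEE49 were lost too (limma adjusted p = 0.0655, 0.0699 and 0.0513). The difference between the crosses in the 14 to 24 hour change was called for DIM1B at 3.41 ± 1.09 (limma adjusted p = 0.0362), but the call was lost in 14 of 22 alternatives, with adjusted p up to 0.113 by limma. It was called for none of the 7 others, and BRX1-2 had 5.22 ± 2.17 (limma adjusted p = 0.0947). Without LZy24 replicate 2, 18 of the 44 genes had a higher change in LZy than in CZy, against 11 with it. Among all loci 2084 of 17704 were higher without that library and 2465 of 17912 with it. The 8 genes were chosen as low in it, so a higher LZy change for them without it follows from the choice.

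In all loci, 21 showed this pattern, and 8 of them are among the 44. The same pattern with LZy24 replicate 1 or replicate 3 as the low library was shown by 0 loci. Of the 13 others, 11 stayed under 5 FPKM in every EC, Zy14 and 1C library. PFC1, another ribosomal RNA dimethylase, stood at 15.5, 0 and 11.1 FPKM in LZy24, 0.08, 0.11 and 0.09 in CZy24 and 0.03, 0 and 0 in Zy24, with 8.13, 9.86 and 3.23 in EC. The methyltransferase AT1G50000 stood at 54.7, 0 and 55 in LZy24, 0, 0.15 and 0 in CZy24 and 0, 0.06 and 0.21 in Zy24, with 32.3, 55 and 42.5 in 1C. PFC1 missed the limit of 5 FPKM in 1 EC library, and AT1G50000 in 2. Of the 36 genes outside the group, 8, 8 and 7 were under 1 FPKM in LZy24 replicates 1 to 3 and 16, 12 and 12 in CZy24, where the choice of the group by these libraries fixes how the counts differ from those of all 44. Whether LZy24 replicate 2 differs from its replicates in some other way was not tested.

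AT3G23620, the remaining Brix gene, stood between 90.7 and 198 FPKM in all 27 libraries. In LZy24 it was at 129, 155 and 159.6, in CZy24 at 125, 115 and 139.5 and in Zy24 at 90.7, 116 and 117. Its lowest single value was in Zy24, but no library showed a dip of the size seen for the 4 others. Of 33 loci with ribosomal RNA in the product description, 27 were at or above 5 FPKM in EC, Zy14 and 1C and 5 of those dipped. DIM1A, the close namesake of DIM1B, stood at 72.6, 58.1 and 72.3 in Zy24 and 24.5, 18.3 and 26.9 in CZy24 and did not dip. Methyltransferases and dimethylases as a whole numbered 275 loci by these words in the description, which leaves out AT3G13180. Of these, 130 were at or above 5 FPKM and 3 dipped. The dip was thus shared by few of them, but by a larger share than among all 8296 such loci, of which 44 dipped. This difference was not tested. These sets by product were chosen after the values were seen.

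**Figure D3:**
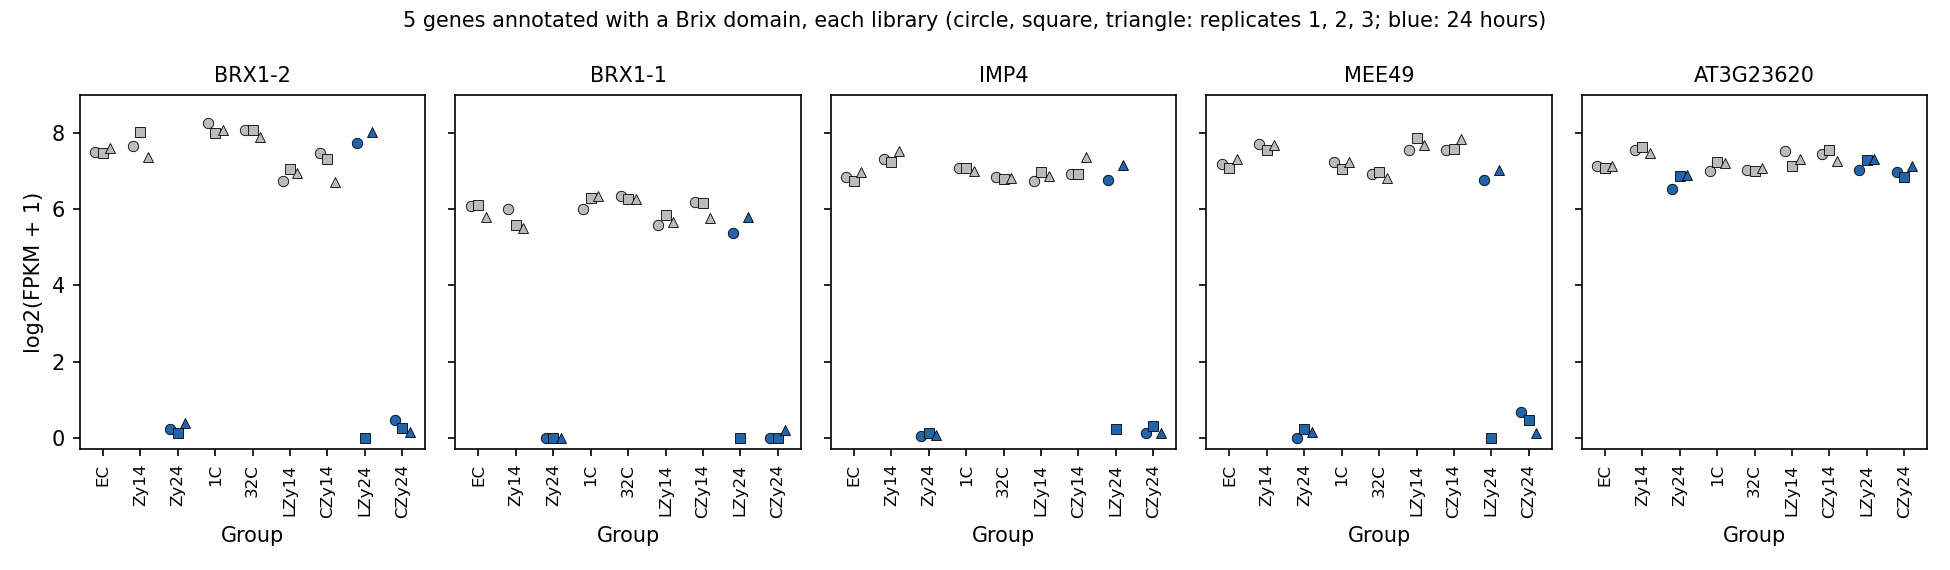
Level of the 5 genes annotated with a ribosomal RNA processing Brix domain in each library, as log2(FPKM + 1) on the vertical axis, by group on the horizontal axis. Circles, squares and triangles are replicates 1, 2 and 3, and blue marks 24 hour zygotes. In the first 4 panels Zy24, CZy24 and LZy24 replicate 2 lie near 0 and LZy24 replicates 1 and 3 lie with the other stages, while AT3G23620 stays between 90.7 and 198 FPKM.

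Beside the all-or-none group, 7 genes fell in CZy and not in LZy. AT1G53345, a protein with a DHHA1 domain, went from 16.1, 18.8 and 5.8 FPKM in CZy14 to 0 in every CZy24 library, but from 3.89, 0.34 and 2.04 in LZy14 to 15.1, 11.8 and 11.8 in LZy24. AT3G52155, of the phosphoglycerate mutase family, went from 11.6, 17.9 and 4.07 to 0, 1.43 and 3.32 in CZy, but from 0, 0.79 and 1.03 to 7.14, 5.47 and 11.4 in LZy. These are the 2 genes that fell in CZy and rose in LZy, and for both the LZy24 libraries lay above all LZy14 and CZy24 libraries. The change in LZy exceeded that in CZy by 6.07 ± 0.72 (limma adjusted p = 0.000222) for AT1G53345 and by 4.78 ± 0.857 (limma adjusted p = 0.00219) for AT3G52155. Both were already lower in LZy14 than in CZy14, by -2.29 ± 0.509 (limma adjusted p = 0.00952) and -2.79 ± 0.606 (limma adjusted p = 0.00835), calls that the reduced 14 hour set ended (0.119 and 0.0852).

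ELIP2 went from 77.8, 85.9 and 99.7 FPKM in CZy14 to 0, 6.5 and 6.62 in CZy24, and from 8.28, 24.5 and 18.6 in LZy14 to 41.2, 23.3 and 29.6 in LZy24. A CZy24 library was at 0, every LZy24 library was at or above 23.3, and the difference between the crosses in the change was 5.44 ± 0.932 (limma adjusted p = 0.00169). AT1G06270, of the pentatricopeptide repeat family that acts on organelle RNA, went from 16, 11.2 and 14.1 to 0.03, 1.5 and 1.48 in CZy and stood at 10.2, 18.3 and 13.5 in LZy14 and 16.3, 13.7 and 19.1 in LZy24. Its LZy14 and LZy24 libraries overlapped, its CZy24 libraries lay below all CZy14 libraries, and the difference in the change was 3.21 ± 0.55 (limma adjusted p = 0.00169). AT1G53800 stood at 0.15, 0.03 and 0.12 in CZy24 and 3.96, 3.6 and 2.83 in LZy24, but its LZy14 libraries were low too, at 5.83, 4.07 and 4.48. AT1G30440, of the phototropic-response NPH3 family, was under 1 FPKM in every CZy24 library at 0.37, 0.47 and 0.35 and stood at 3.34, 1.09 and 4.47 in LZy24. A CZy14 library of AT1G30440 was already at 0.57, and its fall of -2.25 ± 0.738 (limma adjusted p = 0.0213) was lost with CZy14 replicates 1 and 2 averaged (limma adjusted p = 0.0893). AT5G16230, a fatty acid desaturase, was low in both crosses at 24 hours and in LZy14 (3.49, 0 and 2), so a dip in LZy could not be seen.

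The opposite order, low in LZy24 and not in CZy24, was seen for fewer genes. AT5G44000, a glutathione S-transferase, stood at 0, 0 and 3.34 FPKM in LZy24 and 25.5, 13.6 and 11 in CZy24, after 19.4, 7.94 and 14.7 in LZy14 and 15.4, 12.4 and 14.2 in CZy14. MAKR2, a membrane-associated kinase regulator, stood at 3.02, 3.22 and 2.02 in LZy24 and 24.9, 15 and 9.98 in CZy24. In both cases the 24 hour groups of the crosses did not overlap, and CZy24 overlapped CZy14. The differences between the crosses in the change were -3.28 ± 0.789 (limma adjusted p = 0.00987) for AT5G44000 and -2.70 ± 0.664 (limma adjusted p = 0.0109) for MAKR2. With the reduced 14 hour set that of AT5G44000 was -3.2 and no longer called (limma adjusted p = 0.055). AT1G12380 also fell in LZy with no call in CZy, at -1.40, and stayed at or above 3.74 FPKM in all 6 libraries.

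Some genes did not dip in the hybrids at all. ARP5, an actin-related protein of the INO80 chromatin remodelling complex, stood at 10.5, 8.35 and 14.4 FPKM in LZy24 and 37.9, 31.5 and 26.9 in CZy24, against 0.65, 0.25 and 0.28 in Zy24. PAI1, an enzyme of tryptophan synthesis, stood at 5.71, 9.16 and 10.6 and 12.4, 13.7 and 22.8, against 0 in every Zy24 library. AT3G25440, an RNA-binding protein with a CRM domain, stood at 11.1, 7.19 and 12.1 and 13.1, 21 and 16.5, against 0.14, 0.17 and 0.26. These 3 were at or above 5 FPKM in all 6 hybrid libraries, and AT3G25440 was the single gene of the 44 that rose in CZy, by 1.47 ± 0.299 (limma adjusted p = 0.00123). PAI1 is to be read with care, since its coding sequence is 99.4% identical to that of PAI2 and reads may be split between them.

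WTF9, a splicing factor of mitochondrial introns, stood at 16.1, 13.2 and 19.9 FPKM in LZy24 and 0, 17.9 and 20.8 in CZy24, so 1 CZy24 library alone showed the dip. POP1, a protein of ribonuclease P, stood at 9.29, 6.56 and 9.92 and 11.6, 10.2 and 1.11, and AT5G25500, annotated as an exosome exonuclease, at 6.54, 2.53 and 8.75 and 7.68, 6.98 and 0.29. CZy24 replicate 3 was the lowest of the 6 hybrid libraries at 24 hours for both genes, and neither was called in either cross. AT1G24290 (an AAA-type ATPase), AT1G74860, DUF7 and AT5G66950 had values between 1.21 and 22.98 FPKM in the 6 libraries and were called in neither cross.

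**Figure D4:**
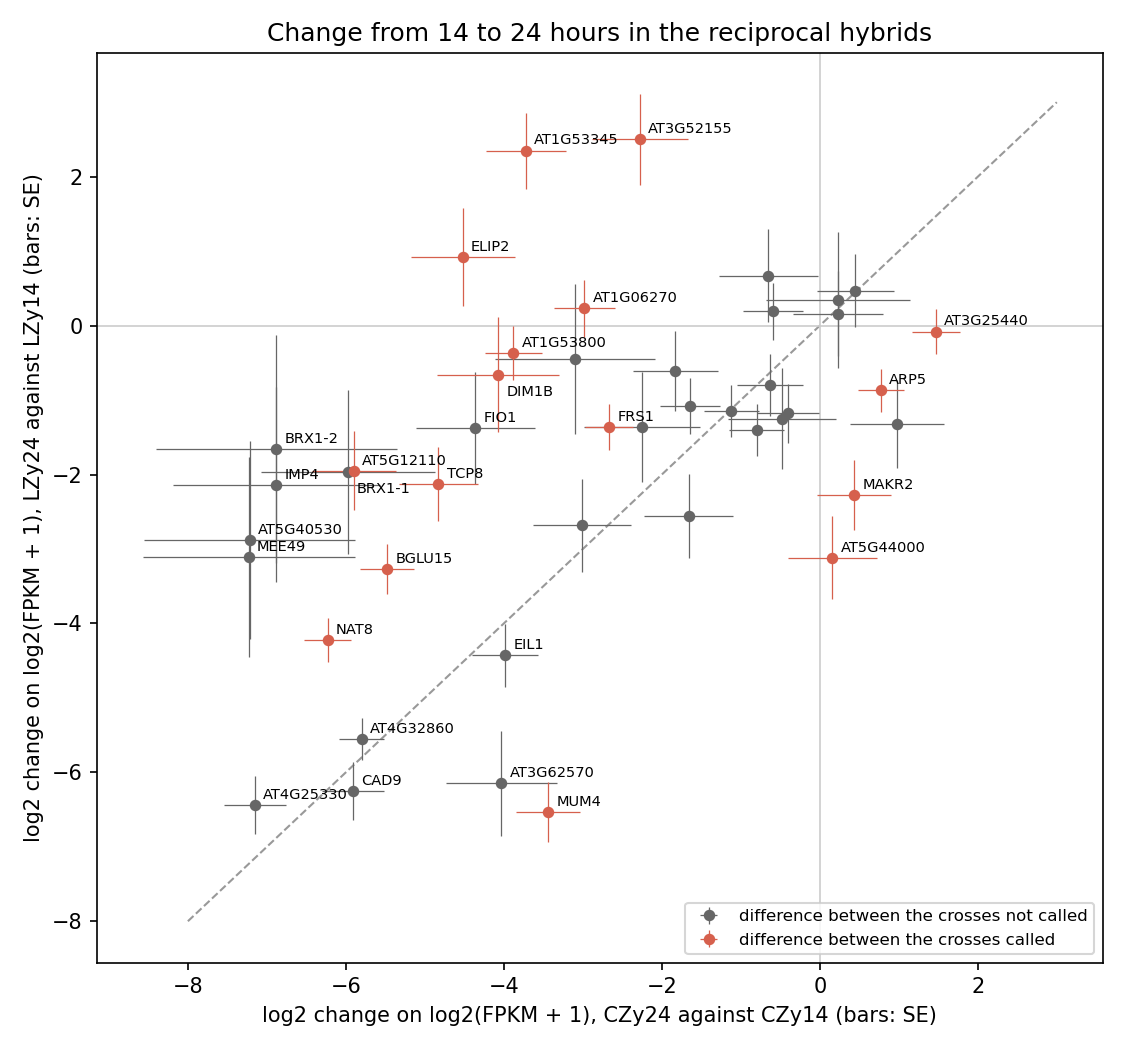
Change from 14 to 24 hours of each of the 44 genes in LZy (vertical axis) and CZy (horizontal axis), on log2(FPKM + 1) with SE bars from the limma fit, 3 libraries per group. Red points are the 16 genes whose change differed between the crosses, and the dashed line marks equal change. Of the 16, 11 lie above the line (AT1G53345 the furthest, at 6.07) and 5 below it (AT5G44000 the furthest, at -3.28).

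Between the crosses at 24 hours, 16 of the 44 genes were higher in LZy24 and 5 were lower, against 12.3% and 12.1% of all loci and 8% and 9.33% of the 8296. The count of 16 rests on single libraries, with 8 without LZy24 replicate 1, 7 without LZy24 replicate 3, and 10, 8 and 9 without CZy24 replicates 1, 2 and 3. The 14 to 24 hour change was called higher in LZy than in CZy for 11 and lower for 5, against 13.8% and 11.1% of all loci and 8.68% and 10.1% of the 8296. At 14 hours 7 genes were lower in LZy14 and 0 higher by limma, against 7.92% and 4.76% of all loci and 3.81% and 2.69% of the 8296, while at an unadjusted p under 0.05 the counts were 8 and 3. Without CZy14 replicate 2 there were 4 lower genes, and with the reduced 14 hour set 0, with 7 at an unadjusted p under 0.05 by limma. These contrasts share libraries, so their counts are not separate evidence. With the reduced 14 hour set 12 genes were higher in LZy24 and 7 had a higher change in LZy. The summed level of 6 central cell and endosperm markers was 14.3 to 16.4 FPKM in LZy24 and 3.66 to 9.58 in CZy24, with MEA and PHE1 at 0 in both groups and FIS2 and AGL80 also at 0 in CZy24. That of 5 seed coat markers was up to 0.17 in LZy24 and 0.05 to 7.15 in CZy24. Their part in the differences between the crosses was not tested.

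Beyond the Brix family, a list of 20 ribosome biogenesis genes did not dip as a whole. Its summed level was 3360 to 3810 FPKM in Zy14, 2240 to 2500 in Zy24 and 5190 to 5480 in 1C, so Zy24 was lowest without being near 0. In LZy24 the sum was 3140 to 3600 and in CZy24 2310 to 2760. From CZy14 to CZy24, 5 of the 20 fell and 0 rose, where 25.2% of all loci fell, so the count is near that background. The median change was -0.51, against -0.09 for all loci. The 5 were BRX1-1, BRX1-2, the DEAD-box helicase RH36 (-3.82, adjusted p = 9.18e-06), BOP1 (-1.7, adjusted p = 0.000142) and the box C/D protein NOP5-1 (-1.15, adjusted p = 0.00275, all by limma). From LZy14 to LZy24, 1 fell, the nucleolin NUC-L2 (-1.78), and 0 rose, where 19.8% of all loci fell, with a median change of -0.04 against -0.05. BRX1-1 and BRX1-2 are the only members of this list among the 44 genes.

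Several of the 44 genes have a close relative that stayed on. Of 18 genes with a relative at 50% or more protein identity over 70% of their length, 5 relatives were at or above 5 FPKM in every Zy24 library and 10 were under 1 in every one. Beside MUM4 the rhamnose synthase RHM3, 91.6% identical, averaged 34.5 FPKM in Zy24 (range 25.03 to 41.85). Beside EIL1 its relative EIN3 averaged 22.4, beside ABIL3 the gene ABIL2 averaged 47.0, and beside AT5G12110 the elongation factor gene AT5G19510 averaged 923. For these 4 pairs the relative stayed at or above 5 FPKM in every Zy24 library, so the dip to under 1 was seen in 1 copy only. EIN3 fell all the same, from a mean of 400 FPKM in Zy14 to 22.4 in Zy24 and 11.6 in 1C. Its means in LZy24 and CZy24 were 3.99 and 14.8. BRX1-1 and BRX1-2, 85.9% identical in protein and 84.5% in coding sequence, are the only pair of relatives in which both dipped. ELIP1, NAT7 and CAD2, relatives of ELIP2, NAT8 and CAD9, were under 0.1 FPKM in every Zy24 library too, and of these NAT7 alone was present in EC, at a mean of 30.8.

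The 44 genes lie on all chromosomes, with 16, 6, 7, 6 and 9 on chromosomes 1 to 5. Their longest annotated transcripts have a median of 1824 bases, against 1721 for 8252 loci at or above 5 FPKM in EC, Zy14 and 1C, the 44 included. A single annotated transcript is held by 25 (56.8%, against 47.7%). Another annotated gene overlaps 14 of them, 13 on the opposite strand, among them BRX1-1, MUM4, FRS1, AT5G12110, AT3G52155 and AT5G44000. The sources used here do not state that strand was kept, so reads of these genes and of their partners cannot be told apart. Site II was present in 5 of the 8 all-or-none genes (62.5%), the 4 Brix genes and AT5G40530, and in 6 of the 36 others (16.7%). Over all 44 genes the share was 25.0%, against 25.2% of the loci at or above 5 FPKM in EC, Zy14 and 1C. The 8 genes were picked after their values were seen, and 4 of the 5 with site II are of 1 family. Whether site II goes with the pattern was not tested.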

How the data were processed

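The deposited values are FPKM, made by the authors, 1 table per library with 2 decimals. Per the submitters' processing notes, reads were handled with RSEM and TopHat2 against TAIR10, with no version, role or scaling step given. The tables hold no counts, so no counting interval is given. Each lists genes above 0 only, and an absent gene was taken as 0.

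The 44 genes, their groups and the lists were chosen with earlier results of these data known, and EC, Zy14, Zy24 and 1C are described without a test. The 12 hybrid libraries entered a single fit with limma 3.58.1 in R 4.3.3 on log2(FPKM + 1). It kept 17912 loci that reached 1 FPKM in 3 or more libraries and used a variance trend, robust moderation and Benjamini-Hochberg adjustment, which was tested on simulated data. The labels do not say that replicates were separate plants, so p-values measure the spread between libraries.

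Genes are named by a set rule: the 20 highest over EC, Zy14 and 1C, those with 24 hour hybrid libraries both under 1 and at or above 5 FPKM, the 5 largest and 5 smallest changes in each cross, and ribosome biogenesis genes. Genes named beyond it were chosen after their values were seen, and 1 of the 44 genes enters the counts but is not reported here by itself. Names, positions and sequences come from the RefSeq annotation of TAIR10.1, where all 44 loci were found. Relatives were found with blast 2.17.0. Python 3.11.15 was used otherwise.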

Additional observations from a re-analysis of the deposited data

Results flagged for a closer look

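For 16 of the 44 genes the change from 14 to 24 hours differed between the crosses by the test of that difference (the change of LZy minus the change of CZy on the log2 scale, limma, adjusted p under 0.05 over all loci).

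The change was higher in LZy for 11 genes. The values were 6.07 for AT1G53345, 5.44 for ELIP2, 4.78 for AT3G52155, 3.95 for AT5G12110, 3.5 for AT1G53800, 3.41 for DIM1B, 3.21 for AT1G06270, 2.7 for TCP8, 2.21 for BGLU15, 2.01 for NAT8 and 1.31 for FRS1. In NAT8 both crosses were listed at 0 at 24 hours, and LZy14 was below CZy14 by -2.01 ± 0.298 (limma adjusted p = 0.000971). AT1G53345, AT3G52155, ELIP2, AT1G53800 and AT5G12110 were likewise lower in LZy14 than in CZy14. None of these 14 hour calls held with CZy14 replicates 1 and 2 averaged and LZy14 replicate 3 left out. For AT1G06270, TCP8 and BGLU15 the crosses were not called apart at 14 hours (limma adjusted p = 1.0, 0.992 and 0.664), and LZy24 was above CZy24 in every library.

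The change was lower in LZy for 5 genes, at -3.28 for AT5G44000, -3.09 for MUM4, -2.7 for MAKR2, -1.63 for ARP5 and -1.55 for AT3G25440. ARP5 and AT3G25440 did not dip in either cross. AT5G44000, MUM4 and MAKR2 were lower in LZy24 than in CZy24 in every library.

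The call held under every alternative tried for 10 of the 16 genes. The other 6 were lost with CZy14 replicates 1 and 2 averaged and LZy14 replicate 3 left out (limma adjusted p = 0.0725 for NAT8, 0.0638 for BGLU15, 0.0883 for AT3G25440, 0.176 for FRS1, 0.055 for AT5G44000 and 0.113 for DIM1B). The calls of DIM1B and FRS1 were lost in 14 and 15 of 22 alternatives.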

How the results depend on the processing

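The limit of 5 FPKM set the number of genes: a limit of 2 gave 164 and a limit of 10 gave 14, and leaving out 1 library each gave 44 to 55. Counts under 1 FPKM in single libraries were moved by the limit where few genes were involved. A limit of 2 gave 2 for LZy14 replicate 1, 1 for LZy14 replicate 3 and 2 for CZy14 replicate 3. A limit of 0.5 gave 0 for CZy14 replicate 3 and 4 for LZy24 replicate 3, and median of ratios scaling gave 1 for LZy14 replicate 3. In the limma fit no direction reversed under any alternative. Leaving out 1 library each gave 27 to 31 genes lower in CZy24, 16 to 20 lower in LZy24, 7 to 17 higher in LZy24 than in CZy24 and 9 to 18 with a higher change in LZy. It gave 1305 to 2247 loci called between LZy14 and CZy14 and 4 to 7 genes lower in LZy14, and a pseudocount of 0.1 gave 4. With only the groups compared in the fit, 9 genes were higher in LZy24 than in CZy24. With CZy14 replicates 1 and 2 averaged, an alternative chosen after seeing the data, 1396 loci were called between LZy14 and CZy14. With LZy14 replicate 3 left out as well, 462 were called, with 0 of the 44 genes lower in LZy14 (7 at an unadjusted p under 0.05), and 2164 for the difference in change, with 7 genes higher. Scaling to equal FPKM sums moved the median change of all loci from -0.091 to -0.305 in CZy and from -0.048 to -0.255 in LZy, and the share of calls that are higher from 48.1% to 37.6% in LZy. Median of ratios scaling moved the CZy median to -0.2 and that of the difference in change from 0.034 to 0.136. Quantile normalization gave 47.8% higher calls between LZy14 and CZy14, against 37.5%.

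Replicate numbers did not pair the libraries: 18 same-number pairs had correlations of -0.03 to 0.07. With the replicate number as a block, 8125 loci were called in CZy, 6771 in LZy, 4331 between LZy24 and CZy24, 2144 between LZy14 and CZy14 and 4265 for the difference in change, and the block ended the calls of AT3G13180 in LZy24 against CZy24 (adjusted p = 0.0652) and of FRS1 (0.062) and DIM1B (0.0532) for the difference in change (limma). Leaving out a replicate leaves its group with 2 libraries. Depth is known only roughly, so a value of 0 cannot be set against a detection limit.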
